A study of Homo sapiens with 10 samples.

Results

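The genes described here encode subunits, made from nuclear genes, of the 5 oxidative phosphorylation complexes of the mitochondrial inner membrane. They were chosen by symbol from the RefSeq protein-coding genes of GRCh38, as NDUFA, NDUFB, NDUFC, NDUFS or NDUFV with digits, SDHA to SDHD, names starting UQCR, the COX4 to COX8 forms, and names starting ATP5. The rule took 87 of 19974 protein-coding genes on chromosomes 1 to 22 and X. Complex I contributed 37 of them, complex II 4, complex III 9, complex IV 17 and complex V 20. The rule itself uses symbols and no measured value, but it was set with earlier results of these data known.

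Chromatin immunoprecipitation with sequencing was done in Kelly, a MYCN-amplified neuroblastoma line of the adrenergic type, with 2 libraries in each of 5 groups. Induced RCOR2 was pulled down through a 3xF (FLAG) tag from RCOR2-3xF cells given 2 µg/mL doxycycline, and uninduced FLAG libraries came from the same kind of cells without doxycycline and with the same antibody. Untreated Kelly cells gave the RCOR1 and RCOR3 libraries, through antibodies to the proteins themselves. LSD1 was pulled down from untreated Kelly cells that carry a doxycycline-driven shRNA against RUNX1T1. Every label gives a time of 48 h. The tagged RCOR2 came from a transgene, and the labels do not say whether a line was a single clone or whether the 2 libraries of a group came from separate cultures.

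RCOR1, RCOR2 and RCOR3 are the CoREST family of scaffold proteins, which hold the histone demethylase LSD1 and histone deacetylases together in corepressor complexes. Oxidative phosphorylation passes electrons from NADH through complex I, or from succinate through complex II, to ubiquinone, and from there through complexes III and IV to oxygen, while complex V uses the resulting proton gradient to make ATP. Most of its subunits are encoded in the nucleus by genes that nearly every tissue uses, and known regulators of these genes include the transcription factors NRF1, YY1 and the ETS protein GABP.

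A gene was counted for a protein when each of the 2 libraries had a called peak that overlapped the 2 kb on either side of either end of the gene. Fold enrichment is the authors' value for a called peak over background, and the value given for a gene is that of its strongest peak in the window. Enrichment values are ranked within a library only, since each list was called on its own library, and values of different libraries are given side by side without a comparison. The strongest peaks of both libraries did not overlap each other at 11 of the 77 members with induced RCOR2 in both, among them NDUFA11, COX4I2, COX6A2 and COX7A1. The same held for 2 of 6 members with uninduced FLAG (NDUFS7 and ATP5PF), 3 of 40 with RCOR1 (NDUFS6, ATP5F1B and ATP5F1D), 4 of 21 with RCOR3 (NDUFA7, NDUFA11, NDUFB6 and NDUFS8) and 1 of 3 with LSD1 (ATP5F1B). The paired values of these genes belong to different places. Overlap of the strongest peaks was counted at members only, so no share over all genes stands beside these counts. The strongest peaks of different proteins at a gene can also lie apart, as they do at NDUFB6. The lists used held from 10253 peaks (uninduced FLAG replicate 1) to 75643 peaks (induced RCOR2 replicate 1). A gene without a peak passed no call at a q-value of 0.05 in that list, which does not show that the protein was absent.

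The promoters below show the DNA under the results, from 250 bases before to 50 bases after the start of transcription. The first set holds the member with the strongest induced RCOR2 peaks of each complex. Capitals mark 6 short letter strings, searched on both strands: GCATGCGC (NRF1 core), CCGGAAG (ETS core), CACGTG (E-box), GGGCGG (GC box), CCAAT (the box named for these letters) and AAGATGGC (YY1 core). All sequences are RefSeq's, on GRCh38.p14, read 5′ to 3′ on the strand of the gene. NDUFA10 (chr2:240025293-240025592, minus strand) encodes an accessory subunit of complex I. SDHA (chr5:218070-218369, plus strand) encodes the flavoprotein of complex II. UQCRC1 (chr3:48609597-48609896, minus strand) encodes a core protein of complex III, COX5A (chr15:74938024-74938323, minus strand) a subunit of complex IV, and ATP5PD (chr17:75046920-75047219, minus strand) subunit d of the peripheral stalk of complex V.
NDUFA10: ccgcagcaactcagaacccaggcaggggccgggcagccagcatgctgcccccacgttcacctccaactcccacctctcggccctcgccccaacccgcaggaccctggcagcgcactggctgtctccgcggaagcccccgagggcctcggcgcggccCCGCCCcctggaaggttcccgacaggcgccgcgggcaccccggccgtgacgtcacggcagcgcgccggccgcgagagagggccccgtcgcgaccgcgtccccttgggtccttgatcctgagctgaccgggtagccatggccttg
SDHA: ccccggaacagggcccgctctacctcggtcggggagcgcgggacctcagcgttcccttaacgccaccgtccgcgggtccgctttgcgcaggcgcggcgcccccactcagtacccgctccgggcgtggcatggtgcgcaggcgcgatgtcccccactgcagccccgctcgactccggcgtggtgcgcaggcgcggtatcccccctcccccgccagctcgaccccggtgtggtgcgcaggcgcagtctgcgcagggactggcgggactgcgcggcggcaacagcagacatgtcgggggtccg
UQCRC1: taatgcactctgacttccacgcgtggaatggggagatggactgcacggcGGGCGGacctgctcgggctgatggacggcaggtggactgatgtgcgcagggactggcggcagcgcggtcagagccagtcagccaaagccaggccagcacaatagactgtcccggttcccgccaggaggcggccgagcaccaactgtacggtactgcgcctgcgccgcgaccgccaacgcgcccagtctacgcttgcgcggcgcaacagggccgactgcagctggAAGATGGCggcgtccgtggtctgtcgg
COX5A: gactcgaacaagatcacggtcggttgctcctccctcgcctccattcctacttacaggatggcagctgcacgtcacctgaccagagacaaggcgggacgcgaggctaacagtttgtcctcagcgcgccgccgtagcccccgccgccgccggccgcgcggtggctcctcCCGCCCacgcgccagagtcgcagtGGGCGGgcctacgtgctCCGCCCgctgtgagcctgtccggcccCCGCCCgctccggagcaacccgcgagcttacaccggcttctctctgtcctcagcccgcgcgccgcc
ATP5PD: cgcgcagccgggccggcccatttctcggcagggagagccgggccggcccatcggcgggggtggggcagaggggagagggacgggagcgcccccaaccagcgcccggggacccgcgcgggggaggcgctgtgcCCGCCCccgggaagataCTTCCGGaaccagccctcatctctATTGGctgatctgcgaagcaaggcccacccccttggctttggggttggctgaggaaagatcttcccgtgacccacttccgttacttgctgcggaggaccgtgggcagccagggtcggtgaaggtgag

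The second set shows the 2 members whose promoters held the NRF1, ETS and YY1 letters together. SDHB (chr1:17053983-17054282, minus strand) encodes the iron-sulfur protein of complex II. ATP5PF (chr21:25735005-25735304, minus strand) encodes coupling factor F6 of complex V, and its start lies 82 bases from an end of GABPA, which encodes the DNA-binding subunit of the ETS protein GABP.
SDHB: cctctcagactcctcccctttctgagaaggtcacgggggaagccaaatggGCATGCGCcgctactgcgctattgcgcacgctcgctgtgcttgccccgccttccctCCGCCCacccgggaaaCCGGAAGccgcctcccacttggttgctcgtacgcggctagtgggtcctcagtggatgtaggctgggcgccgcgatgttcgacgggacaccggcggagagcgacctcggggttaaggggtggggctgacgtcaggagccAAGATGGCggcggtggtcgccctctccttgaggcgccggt
ATP5PF: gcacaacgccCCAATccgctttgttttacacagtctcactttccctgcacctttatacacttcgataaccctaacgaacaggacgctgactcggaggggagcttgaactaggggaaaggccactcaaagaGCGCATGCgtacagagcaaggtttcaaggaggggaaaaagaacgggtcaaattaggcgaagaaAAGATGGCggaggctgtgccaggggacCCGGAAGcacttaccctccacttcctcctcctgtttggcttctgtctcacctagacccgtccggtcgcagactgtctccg

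The last set shows 2 members at which no induced RCOR2 peak was called anywhere from 2 kb before to 2 kb after the gene. COX6B1 (chr19:35648073-35648372, plus strand) and COX7B (chrX:77899218-77899517, plus strand) both encode small subunits of complex IV.
COX6B1: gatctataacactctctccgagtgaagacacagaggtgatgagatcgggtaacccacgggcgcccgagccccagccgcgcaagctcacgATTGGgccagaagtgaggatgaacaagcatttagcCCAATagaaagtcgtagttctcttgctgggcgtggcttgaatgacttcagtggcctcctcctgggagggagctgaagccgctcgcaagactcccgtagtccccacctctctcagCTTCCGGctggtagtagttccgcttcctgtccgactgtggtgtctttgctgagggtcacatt
COX7B: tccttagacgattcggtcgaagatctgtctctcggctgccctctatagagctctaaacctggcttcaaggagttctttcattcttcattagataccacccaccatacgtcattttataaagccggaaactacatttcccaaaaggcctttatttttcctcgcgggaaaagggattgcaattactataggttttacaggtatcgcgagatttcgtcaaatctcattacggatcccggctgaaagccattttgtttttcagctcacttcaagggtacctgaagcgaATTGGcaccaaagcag

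Most subunit genes had induced RCOR2 at a gene end. Both induced libraries had a peak at 77 of the 87 members (88.5%), where the same count over all protein-coding genes was 71.8%. The induced libraries taken singly had peaks at 78 members in replicate 1 (89.7%, all genes 75.3%) and 79 in replicate 2 (90.8%, all genes 75.5%). The share was above that of all genes in complex I (35 of 37), complex II (4 of 4), complex III (8 of 9) and complex V (18 of 20), and close to it in complex IV (12 of 17). Uninduced FLAG peaks in both libraries were found at 6 members (6.9%), against 8.47% of all genes. These 6 were NDUFB2, NDUFB9, NDUFS7, UQCRFS1, COX4I1 and ATP5PF. The uninduced count rested on the library, with 29 members in replicate 1 (33.3%, all genes 24.6%) and 12 in replicate 2 (13.8%, all genes 14.6%).

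Induced RCOR2 in both libraries with no uninduced FLAG peak in either was found at 43 members (49.4%), against 41.7% of all genes. Another 34 (39.1%, all genes 30.1%) had induced RCOR2 in both and an uninduced peak in at least 1 library. These shares are of all members and all genes, so both carry the higher share of induced RCOR2 at members. Among genes with induced RCOR2 in both libraries, 43 of 77 members had no uninduced peak, against 8320 of 14341 genes. The share among such genes was thus not higher at members. Complex I held 21 of the 43 and complex II none. All 4 SDH genes had an uninduced FLAG peak in exactly 1 of the 2 libraries. Without uninduced replicate 1 the count of 43 became 65. Its share was below that of all genes with peaks above the median score (41 members, 47.1%, all genes 48.7%) and with equal numbers of top peaks (5 members, 5.75%, all genes 12.4%). Since the smallest two-sided p of an exact test with 2 libraries a group is 0.333, no test of induced against uninduced cells was made.

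Both RCOR1 libraries had a peak at 40 members (46%), where all genes gave 33%. With 50% reciprocal overlap of the 2 libraries, RCOR1 was left at 7 members, fewer than the 10 with RCOR3 by the same setting. Without shares over all genes beside them, the counts of 7 and 10 do not set the members apart from other genes. RCOR1 replicate 1 reached 75 members (86.2%, all genes 56.8%) and replicate 2 reached 40 (46%, all genes 34.4%). Without replicate 2 the count is therefore 75, and its members are those of replicate 1. RCOR3 was found in both libraries at 21 members (24.1%), against 13.1% of all genes, with 33 members in replicate 1 (37.9%, all genes 20.9%) and 31 in replicate 2 (35.6%, all genes 25.9%). Without replicate 2 the RCOR3 count was 33. With peaks above the median score of their library, RCOR3 was left at 3 members (3.45%), below the 4.12% of all genes.

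LSD1 in both libraries was rare at the ends of subunit genes, as it was at the ends of all genes. It had peaks in both libraries at 3 members (3.45%), NDUFB4, COX7A2L and ATP5F1B, where all genes gave 4.34%. LSD1 replicate 1 had a peak at 17 members (19.5%, all genes 9.95%) and replicate 2 at 4 (4.6%, all genes 5.53%), so the count without replicate 2 was 17. The LSD1 lists were of like length, with 19392 and 19667 peaks. LSD1 and the other proteins were measured in different derivatives of Kelly, and protein and derivative cannot be told apart in that comparison.

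**Figure D1:**
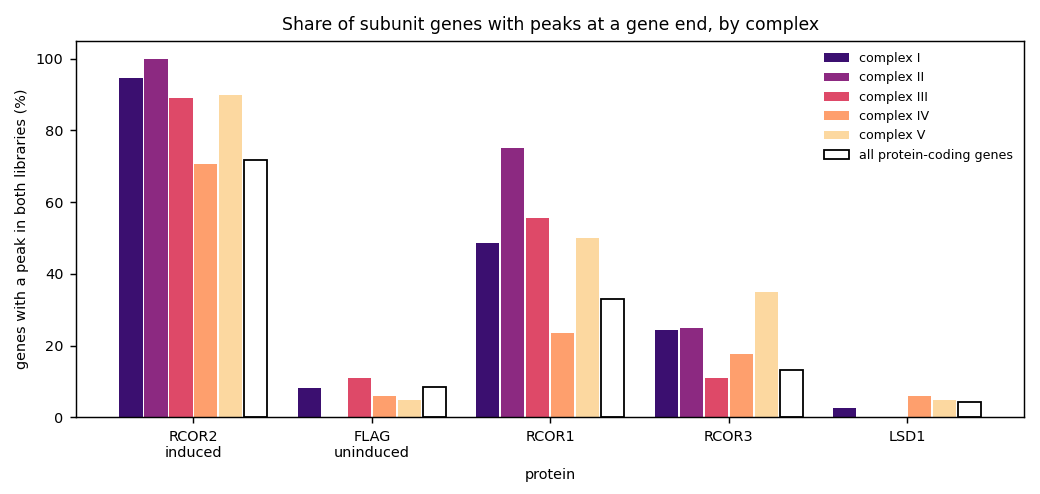
Share of the subunit genes of each complex (%, bars) with a peak in both libraries of induced RCOR2, uninduced FLAG, RCOR1, RCOR3 and LSD1, beside the share of all 19974 protein-coding genes (white bars). Induced RCOR2 was highest in every complex, complex IV was the lowest for induced RCOR2 and RCOR1, and complex II had no gene with uninduced FLAG or LSD1 in both libraries.

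The plot of shares by complex shows induced RCOR2 ahead of RCOR1, and RCOR1 ahead of RCOR3, in each of the 5 complexes by this count. For RCOR1 the counts were 18 of 37 in complex I, 3 of 4 in complex II, 5 of 9 in complex III, 4 of 17 in complex IV and 10 of 20 in complex V. For RCOR3 they were 9, 1, 1, 3 and 7 in the same order of complexes. Complex IV thus had the lowest RCOR1 share (23.5%), below that of all genes, and complex V the highest RCOR3 share (35%). The complex IV count includes 6 tissue-restricted isoforms, none with RCOR1 in both libraries. All 4 of its genes with RCOR1 were among its 11 other genes, where the share was not below the 33% of all genes.

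Combinations of proteins followed from these counts. Peaks of RCOR1, RCOR2 and RCOR3 in both libraries each met at 16 members (18.4%), where all genes gave 11.4%. Induced RCOR2 alone of the 4 proteins was found at 33 members (37.9%, all genes 37.2%). All 21 members with RCOR3 also had induced RCOR2, and 39 of the 40 with RCOR1 did, the exception being NDUFB5, where the induced peak was called in replicate 2 only. Over all genes these proteins also seldom came without induced RCOR2. Of 6583 genes with RCOR1, those without it were 56 with RCOR1 alone, 20 with LSD1, 11 with RCOR3 and 18 with both. Of 2624 genes with RCOR3, they were the same 11 and 18, 9 with RCOR3 alone and 3 with LSD1. RCOR2 and RCOR3 were found in both libraries without RCOR1 in both at 5 members (5.75%, all genes 1.56%). NDUFS5, NDUFS8, NDUFA7 and COX8A were among them, and each of these 4 had a peak in RCOR1 replicate 1. None of the 4 proteins was called in both libraries at 8 members (9.2%, all genes 27.2%), and 4 members (4.6%, all genes 19.3%) had no peak in any of the 10 libraries.

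Although frequent, the induced RCOR2 peaks at members were not higher than elsewhere. Over the members with a peak, median fold enrichment was 11.1 and 13.3 in the induced RCOR2 libraries, where the medians of all genes with a peak were 12.7 and 22.9. In induced replicate 2, 53 of 79 members lay at or below the median of all genes. RCOR1 medians were 6.78 and 5.60 at members and 6.33 and 5.68 at all genes, and RCOR3 medians were 4.52 and 5.17 at members and 4.77 and 5.38 at all genes. LSD1 medians were 2.84 over 17 members and 4.91 over 4 members, where all genes gave 3.98 and 5.08. When only the 10253 strongest peaks of every list were kept, induced RCOR2 was left at 23 members (26.4%), below the 31.8% of all genes.

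**Figure D2:**
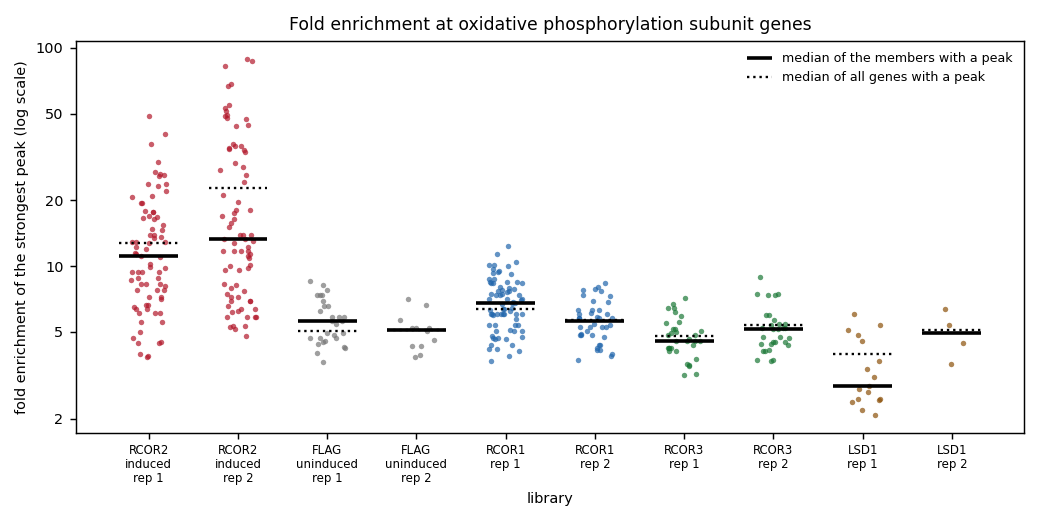
Fold enrichment of the strongest peak at each member (points, log scale) in each of the 10 libraries, with the median of the members (solid line) and of all genes with a peak (dotted line). In both induced RCOR2 libraries the members' median lies under that of all genes, and values reach 48.9 in replicate 1 and 89.3 in replicate 2.

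The plot of fold enrichment by library shows the wide range of induced RCOR2, from 3.83 to 48.9 in replicate 1 and from 4.78 to 89.3 in replicate 2. RCOR1, RCOR3, LSD1 and uninduced FLAG values all stayed between 2.08 and 12.4.

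Complex I takes electrons from NADH and is built of core subunits that carry the redox groups and of many accessory subunits. All 7 nuclear core subunit genes had induced RCOR2 in both libraries, as did 27 of the 29 accessory genes. The readthrough gene NDUFC2-KCTD14 shares its peaks with NDUFC2 and is not separate evidence. RCOR1 was found at 5 of the 7 core genes and 13 of the 29 accessory genes, and RCOR3 at 4 of 7 and 5 of 29. The shares of all genes were 71.8% for induced RCOR2, 33% for RCOR1 and 13.1% for RCOR3. The 2 accessory genes without induced RCOR2 in both libraries at a gene end, NDUFA5 and NDUFB5, had a peak there in induced replicate 2 only (17.02 and 8.28). At NDUFA5 its summit lay 66915 bases after the start of transcription, past the far end of the gene. Inside NDUFA5, 20.8 and 20.9 kb from the nearest gene end, induced RCOR2 was called in both libraries (3.83 and 6.97). RCOR1 was also called at that place in both (5.25 and 4.80).

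NDUFS7 encodes the core subunit whose iron-sulfur cluster hands electrons to ubiquinone, and it carried peaks in 8 of the 10 libraries. Its fold enrichment was 48.9 and 54.8 in induced RCOR2, against 7.39 and 5.20 in uninduced FLAG. It was 10.1 and 7.67 for RCOR1 and 4.23 and 7.43 for RCOR3, and no LSD1 peak was called. NDUFV2, an iron-sulfur subunit next to the NADH site, had 26.0 and 89.3 in induced RCOR2 and 7.39 in uninduced replicate 1, with no peak in uninduced replicate 2. RCOR1 at NDUFV2 reached 6.37 and 7.75, RCOR3 3.73 in replicate 2 only, and LSD1 6.36 in replicate 2 only. Induced peaks were thus called in both libraries at both genes, and uninduced peaks in both at NDUFS7 alone.

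NDUFA10 was the member of complex I whose lower induced RCOR2 rank was highest, with 40.4 and 87.2, which is percentile 99.6 or more of all peaks in both libraries. Uninduced FLAG gave 8.17 in replicate 1 and no peak in replicate 2, and RCOR1 gave 5.03 and 6.83. The summits of the induced peaks lay 94 and 55 bases before the start of transcription, inside the promoter printed above.

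NDUFS1, NDUFS4, NDUFA9, NDUFA13, NDUFB1, NDUFB4, NDUFB6 and NDUFB7 had induced RCOR2 and RCOR1 in both libraries and no uninduced FLAG peak. NDUFS1 encodes the largest core subunit, with iron-sulfur clusters, and had 9.77 and 10.9 for induced RCOR2, 4.66 and 3.72 for RCOR1 and 4.94 and 5.17 for RCOR3. NDUFB6, a subunit of the membrane arm, had 17.9 and 28.4 for induced RCOR2, 8.72 and 4.85 for RCOR1 and 4.20 and 5.97 for RCOR3. The strongest induced RCOR2 summits at NDUFB6 lay 22075 and 22074 bases after the start of transcription, past the far end of the gene. Those of RCOR1 lay at 4 and -32 bases and those of RCOR3 at -39 and -149, so the RCOR2 values belong to another place. NDUFA9, an accessory subunit near the ubiquinone site, had 8.86 and 7.22 for induced RCOR2, 10.4 and 7.27 for RCOR1 and 3.53 and 4.37 for RCOR3. NDUFS4, an accessory subunit known from Leigh syndrome, had 5.53 and 5.85 for induced RCOR2 and 9.39 and 8.40 for RCOR1, with LSD1 at 5.36 in replicate 1 only. By the lower of both ranks NDUFS4 was the highest complex I gene for RCOR1, at percentile 90.4.

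NDUFB4 and NDUFA11 differed in which further protein was called in both libraries. NDUFB4, of the membrane arm, had LSD1 at 4.84 and 5.37, RCOR1 at 7.59 and 4.91, induced RCOR2 at 6.33 and 5.14, and RCOR3 at 3.57 in replicate 1 only. NDUFA11, also of the membrane arm, had RCOR3 at 6.14 and 4.48, RCOR1 at 12.4 and 6.30, induced RCOR2 at 11.4 and 34.0, and no LSD1 peak. Uninduced FLAG was absent from the lists at NDUFB4 and called at 4.38 in replicate 1 at NDUFA11.

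**Figure D3:**
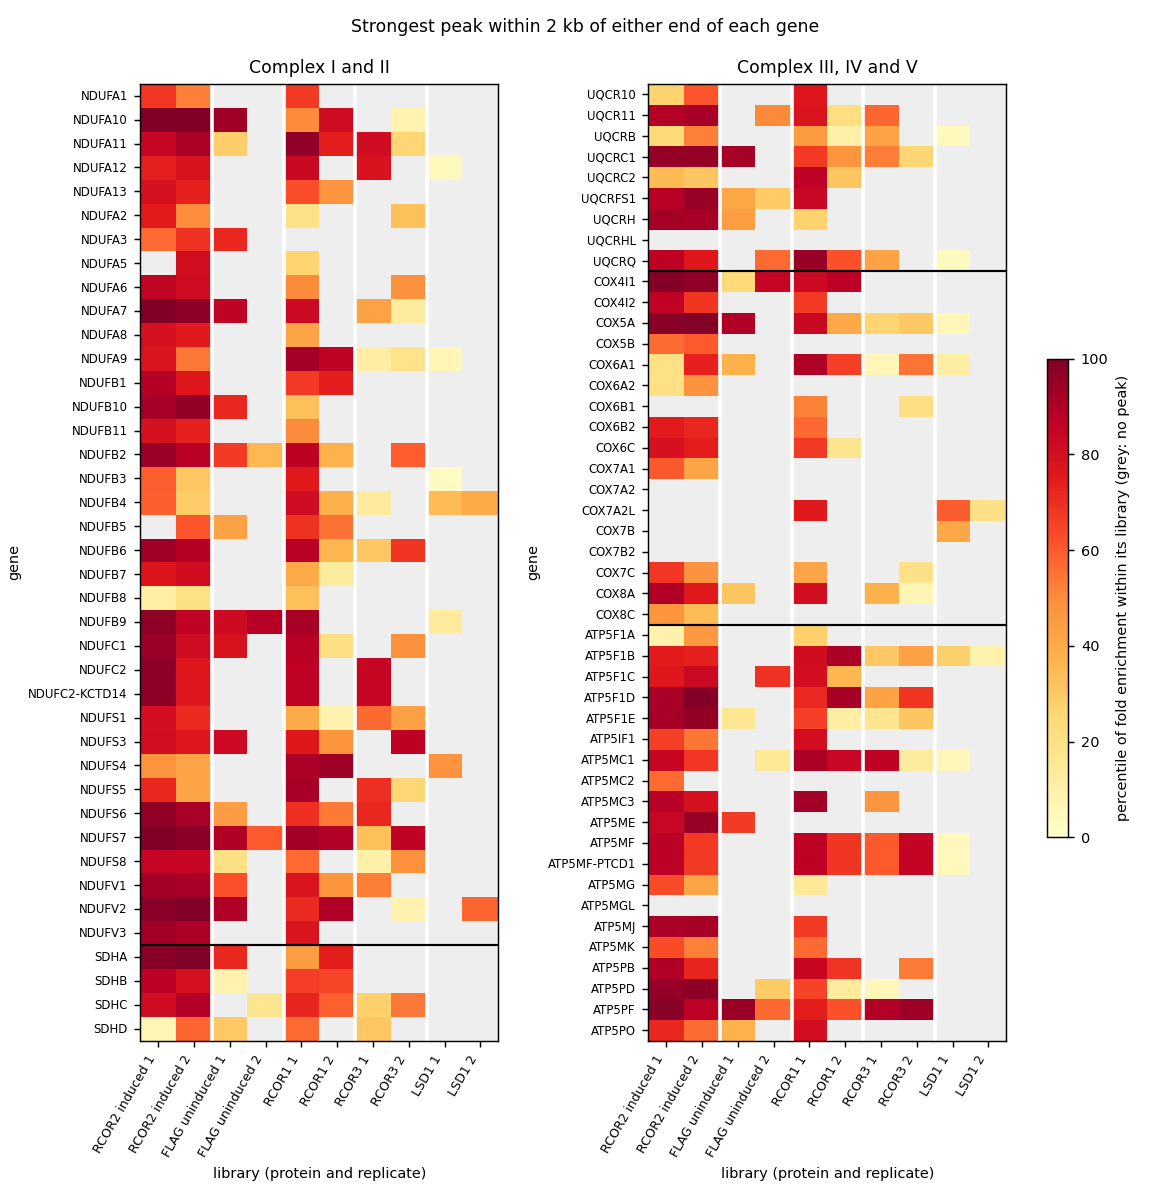
Percentile of fold enrichment of the strongest peak at 86 of the 87 members (rows) among all peaks of its library, in each of the 10 libraries (columns), with complexes parted by black lines and grey where no peak was called. Both induced RCOR2 columns are filled for 76 of these members, both RCOR1 columns for 40, and both LSD1 columns for NDUFB4, COX7A2L and ATP5F1B.

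The map of members by library also shows how uneven the paired libraries were, above all the RCOR1 pair, where replicate 2 is grey at 34 of the members that replicate 1 fills. The uninduced and LSD1 columns differ in the same way, with replicate 1 the fuller in both.

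Complex II oxidises succinate and is the smallest complex, with all of its subunits encoded in the nucleus. Inherited mutations in its genes are a known cause of paraganglioma and phaeochromocytoma, tumours of the sympathoadrenal lineage to which neuroblastoma also belongs. SDHA, the flavoprotein, had 26.1 and 82.4 for induced RCOR2, 5.83 in uninduced replicate 1, and 4.71 and 6.30 for RCOR1. SDHB, the iron-sulfur protein, had 12.9 and 16.4 for induced RCOR2, 3.65 in uninduced replicate 1, and 6.02 and 5.79 for RCOR1. Neither had an RCOR3 or LSD1 peak. The membrane anchor SDHC had 10.2 and 29.7 for induced RCOR2, 3.92 in uninduced replicate 2, 6.40 and 5.76 for RCOR1, and 4.09 and 5.43 for RCOR3. The other anchor, SDHD, was weaker, at 3.83 and 7.70 for induced RCOR2, 4.49 in uninduced replicate 1, 5.37 in RCOR1 replicate 1 and 4.20 in RCOR3 replicate 1.

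Complex III passes electrons from ubiquinol to cytochrome c. Induced RCOR2 was found in both libraries at all members but UQCRHL, a short copy of UQCRH, at which no library had a peak. The core protein UQCRC1 had 21.0 and 47.3 for induced RCOR2, 7.78 in uninduced replicate 1, 6.04 and 5.25 for RCOR1, and 4.84 and 4.48 for RCOR3. UQCRC2, the other core protein, had only 4.98 and 5.29 for induced RCOR2 with 8.39 and 4.73 for RCOR1, and no uninduced FLAG or RCOR3 peak. UQCRFS1, the Rieske iron-sulfur protein, had 13.6 and 43.7 for induced RCOR2, 4.69 and 4.32 for uninduced FLAG and 7.93 in RCOR1 replicate 1. UQCRH, the hinge protein, had 16.97 and 36.1 for induced RCOR2. UQCRQ, a small subunit, had 12.7 and 13.3 for induced RCOR2 and the highest RCOR1 values of the complex, at 11.4 and 5.78. UQCRB, another small subunit, had 4.48 and 6.91 for induced RCOR2 and 4.77 and 3.88 for RCOR1. In induced replicate 2 the genes of complex III thus ran from 5.29 (UQCRC2) to 47.3 (UQCRC1).

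Complex IV, cytochrome c oxidase, held 5 of the 7 members without induced RCOR2 at a gene end in either library. COX4I1 and COX5A led it, with 29.9 and 49.4 for COX4I1 and 26.6 and 68.6 for COX5A in induced RCOR2. Uninduced FLAG gave 4.28 and 6.60 at COX4I1 and 7.39 in replicate 1 at COX5A. RCOR1 gave 7.72 and 7.35 at COX4I1 and 7.85 and 5.05 at COX5A, and RCOR3 was called in both libraries at COX5A (4.07 and 4.68) but in neither at COX4I1. COX6A1 had 4.43 and 11.7 for induced RCOR2 with 9.25 and 5.82 for RCOR1 and 3.20 and 5.44 for RCOR3, and COX6C had 9.40 and 12.2 for induced RCOR2 with 6.04 and 4.20 for RCOR1. COX8A had 14.6 and 13.0 for induced RCOR2 and 4.36 and 3.68 for RCOR3, with RCOR1 called in replicate 1 only.

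Several subunits of complex IV exist as tissue-restricted isoforms, known for instance from muscle (COX6A2, COX7A1), lung (COX4I2) and testis (COX6B2, COX7B2, COX8C). Of these 6 genes 5 had induced RCOR2 in both libraries, all 5 without any uninduced FLAG peak, and none had RCOR1, RCOR3 or LSD1 in both. All genes gave 71.8% for induced RCOR2, 41.7% for induced RCOR2 without an uninduced peak, 33% for RCOR1, 13.1% for RCOR3 and 4.34% for LSD1. Induced values ran from 4.43 (COX6A2) to 12.2 (COX4I2) in replicate 1 and from 5.32 (COX8C) to 11.2 (COX6B2) in replicate 2, with COX7A1 at 6.47 and 5.85. RCOR1 was called at COX4I2 (6.04) and COX6B2 (5.37), in replicate 1 alone. Adding the copies UQCRHL and ATP5MGL, none of 8 such members had RCOR1 in both libraries, against 2 of the 8 members listed as their ubiquitous partners. Induced RCOR2 was found at 5 of 8 in both sets.

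Complex IV also held 4 ubiquitous subunit genes without RCOR2 in either library at a gene end, COX6B1, COX7A2, COX7A2L and COX7B. COX7A2L, which takes part in the joining of complexes III and IV, showed LSD1 at 6.01 and 4.46 and RCOR1 at 6.80 in replicate 1. The LSD1 summits lay at -8437 and -8530 bases from the start of transcription in its RefSeq promoter, where a negative value is before the start. That promoter lies inside the gene, and there the induced RCOR2 libraries had peaks of 10.4 and 17.8, against 5.41 in uninduced replicate 1, and RCOR1 had 12.4 and 7.67. A further site, 18579 bases after that start by the summit of RCOR1 replicate 1, was shared by RCOR1 (16.7 and 9.38), RCOR3 (7.65 and 10.5) and LSD1 (4.46 and 9.44) with no induced RCOR2 peak. COX7A2 had peaks inside the gene, 6421 bases after the start by the summit of induced replicate 2, with induced RCOR2 at 9.04 in replicate 2, RCOR1 at 9.73 and 6.30, and LSD1 at 5.12 in replicate 1. COX6B1 and COX7B were the plainest cases, since no induced RCOR2 peak was called over either gene. COX6B1 had RCOR1 at 5.07 in replicate 1 and RCOR3 at 4.41 in replicate 2, and COX7B had LSD1 at 5.07 in replicate 1.

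Complex V makes ATP in its F1 head, which is driven through a central stalk by the c ring in the membrane and held by a peripheral stalk. All 5 genes of the head and central stalk, all 4 of the peripheral stalk and all 5 of the other membrane subunits had induced RCOR2 in both libraries. In the c ring ATP5MC2 did not. With 71.8% of all genes called, such counts over so few genes do not set a part of the complex apart. RCOR1 was found at 4 of 5 head genes, 3 of 4 peripheral stalk genes and 1 of 5 of the other membrane subunits. RCOR3 was found at 3 of 5, 1 of 4 and 1 of 5 of the same sets. The shares of all genes were 33% for RCOR1 and 13.1% for RCOR3. ATP5MF and the readthrough gene ATP5MF-PTCD1 share the same peaks and count as 1 locus.

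ATP5F1B, the catalytic beta subunit, was the only member with RCOR1, RCOR2, RCOR3 and LSD1 each in both libraries. It had 8.30 and 11.7 for induced RCOR2 and no uninduced FLAG peak, with RCOR1 at 7.46 and 7.88, RCOR3 at 4.20 and 5.17, and LSD1 at 4.53 and 3.55. The strongest RCOR1 summits lay 9.42 kb apart and the strongest LSD1 summits 9.27 kb apart, with replicate 1 at the other end of the gene in both cases. At the end where the RCOR2, RCOR3 and replicate 2 summits lay, replicate 1 had weaker peaks of 7.38 for RCOR1 and 4.32 for LSD1. The delta subunit ATP5F1D had 16.4 and 66.6 for induced RCOR2, no uninduced FLAG peak, 6.37 and 8.03 for RCOR1 and 4.52 and 5.97 for RCOR3. The strongest induced RCOR2 peaks at ATP5F1D, and that of RCOR1 replicate 2, lay outside the gene. Those of RCOR1 replicate 1 and of both RCOR3 libraries lay on the gene end itself, so the values belong to different places. The epsilon subunit ATP5F1E had 16.8 and 48.7 for induced RCOR2, against 3.99 in uninduced replicate 1. The alpha subunit ATP5F1A was far weaker, with 3.87 and 6.25 for induced RCOR2 and RCOR1 at 4.18 in replicate 1 only. In induced replicate 2 the head genes thus ran from 6.25 (ATP5F1A) to 66.6 (ATP5F1D).

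In the peripheral stalk, ATP5PD had 20.8 and 52.9 for induced RCOR2, 4.32 in uninduced replicate 2, and 5.94 and 4.14 for RCOR1. ATP5PB, subunit b, had 14.8 and 11.3 for induced RCOR2, no uninduced FLAG peak, and 8.04 and 6.09 for RCOR1. ATP5PF had 27.1 and 26.0 for induced RCOR2, against 8.55 and 5.19 for uninduced FLAG, with 6.71 and 5.78 for RCOR1. It had the highest RCOR3 pair of all members, at 7.10 and 8.95. The neighbouring GABPA had the same values in the induced RCOR2, RCOR1 and RCOR3 libraries, since the same peaks lie between both genes, and a peak there cannot be given to either gene.

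The c ring genes ATP5MC1, ATP5MC2 and ATP5MC3 encode the same mature protein. ATP5MC1 had 11.1 and 9.78 for induced RCOR2, 3.81 in uninduced replicate 2, 9.50 and 6.90 for RCOR1 and 6.72 and 4.08 for RCOR3. ATP5MC3 had 13.4 and 15.7 for induced RCOR2 with RCOR1 (10.2) and RCOR3 (4.65) in replicate 1 only. ATP5MC2 had no induced RCOR2 peak in replicate 2 within 2 kb of a gene end, but its RefSeq start lies inside the gene, and there induced RCOR2 gave 11.3 and 9.59, against 5.44 in uninduced replicate 1. RCOR1 gave 10.3 and 6.79 at the same place. ATP5IF1, the inhibitor of the enzyme, had 7.06 and 7.22 for induced RCOR2 and RCOR1 at 7.38 in replicate 1 only, and the copy ATP5MGL had no peak in any library.

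Peaks at these genes were close to the start of transcription. A start was known for 70 of the 87 members. Among those with a peak, the summit lay within 500 bp of the start for 84.4% and 81.2% in the induced RCOR2 libraries, where all genes gave 68.2% and 71.5%. For RCOR1 it did for 91.8% and 90.6% of members, and for 64.7% and 71.8% of all genes. Median summit positions at members were +31 and -35 bp in the induced RCOR2 libraries and -85 and -68 bp in the RCOR1 libraries, where a negative value is before the start. At the same member the summits of the 2 induced libraries lay a median of 63 bp apart, and those of induced replicate 1 and RCOR1 replicate 1 lay 160 bp apart.

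**Figure D4:**
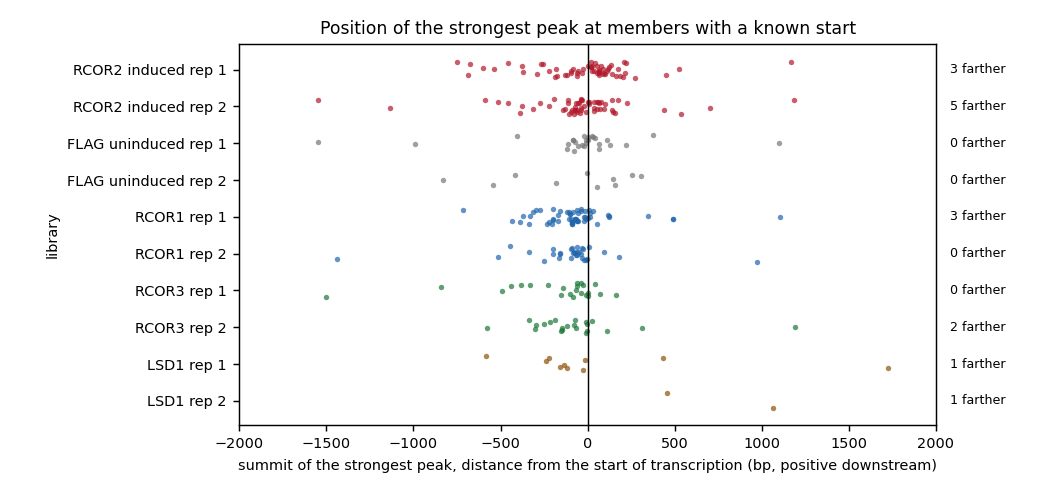
Distance of the strongest peak's summit from the start of transcription (bp, positive downstream) at members with a known start, by library, with the number of members farther than 2 kb at the right. Most points of every RCOR library lie within 500 bp of the start, and the RCOR1 points lie mainly on the upstream side.

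The plot of summit positions shows few members with distal summits, with 3 and 5 beyond 2 kb of the start in the induced RCOR2 libraries. Subunit genes also had close neighbours more often than other genes. Another protein-coding gene ended or began within 1 kb of the start for 28 of 70 members (40%), against 18.7% of all genes. Examples were SDHA with CCDC127 (167 bp), SDHD with TIMM8B (117 bp), COX4I1 with EMC8 (151 bp) and NDUFS1 with EEF1B2 (165 bp). The strongest induced RCOR2 peak lay nearer to the end of another gene for 13 of 78 members in replicate 1 (16.7%, all genes 15.3%) and for 20 of 79 in replicate 2 (25.3%, all genes 15.2%).

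The promoters of the members differed from others in letters that known regulators of mitochondrial genes bind. The NRF1 core was found in 13 of 70 promoters (18.6%), against 4.26% of all 15812 promoters, the ETS core in 20 (28.6%, all 14.2%) and the YY1 core in 11 (15.7%, all 3.91%). The GC box (61.4%, all 58.5%), the E-box (10%, all 8.87%) and the CCAAT box (35.7%, all 36.3%) were near the share of all promoters. The promoter of SDHA printed above holds none of the 6 strings although its induced RCOR2 peaks were among the strongest, and that of COX5A holds 4 GC boxes. A match is a string of letters and no evidence that a factor was bound there.

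The proteins were also counted with and without each string among the 70 promoters. Induced RCOR2 was found in both libraries at 12 of 13 members with the NRF1 core and 51 of 57 without it, at 19 of 20 with the ETS core and 44 of 50 without, and at all 11 with the YY1 core and 52 of 59 without. It was found at 41 of 43 with the GC box and 22 of 27 without, at all 7 with the E-box and 56 of 63 without, and at 20 of 25 with the CCAAT box and 43 of 45 without. The CCAAT box was thus the string with the lower induced RCOR2 share in its presence. RCOR1 was found at 7 of 13 with the NRF1 core and 25 of 57 without, at 11 of 20 with the ETS core and 21 of 50 without, and at 7 of 11 with the YY1 core and 25 of 59 without. It was found at 20 of 43 with the GC box and 12 of 27 without, and at 5 of 7 with the E-box and 27 of 63 without. RCOR3 was found at 3 of 13 with the NRF1 core and 11 of 57 without, at 4 of 20 with the ETS core and 10 of 50 without, and at 5 of 11 with the YY1 core and 9 of 59 without. It was found at 8 of 43 with the GC box and 6 of 27 without, at 4 of 7 with the E-box and 10 of 63 without, and at 6 of 25 with the CCAAT box and 8 of 45 without. None of these differences was tested. The counts with and without a string were made for members only, so they do not show whether all genes differ in the same way.

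Base content went with the height of the RCOR2 peaks. Over the 64 members with a known promoter and a peak, Spearman's rho between the share of G and C in the promoter and fold enrichment was 0.44 in induced replicate 1 and 0.63 in replicate 2. Over all genes it was 0.26 and 0.42. For RCOR1 the same values at members were -0.05 in both libraries (61 and 32 members), and for RCOR3 they were -0.12 and -0.16 (23 and 24 members). These are correlations across genes, which share a library and are not independent replicates. The part of base content in the peak calls was not tested.

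**Figure D5:**
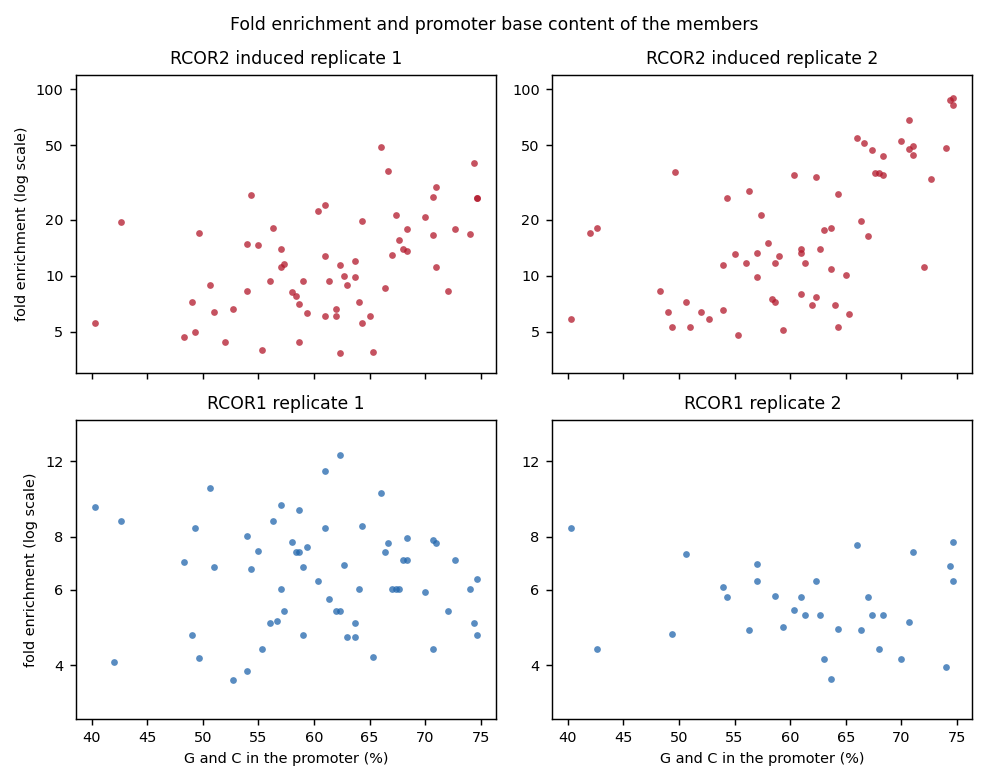
Fold enrichment of the strongest peak (log scale) against the share of G and C in the RefSeq promoter (%), 1 point a member, in the induced RCOR2 libraries (top) and the RCOR1 libraries (bottom). The points climb with base content in both RCOR2 panels and in neither RCOR1 panel.

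The plot of fold enrichment against base content was also read with the members divided at 60% G and C, a value chosen after the data were seen. Members at or above it had induced RCOR2 medians of 13.3 and 33.2, and those below it 8.21 and 9.78. RCOR1 medians were 6.04 and 5.25 at or above it and 6.88 and 5.82 below it. Induced RCOR2 was found in both libraries at 97.4% of the 38 members at or above 60% and at 81.2% of the 32 below, where all genes gave 90.5% and 47.1%. The members below 60% thus had induced RCOR2 more often than all genes of that base content. The 5 members with a known promoter and no induced RCOR2 at a gene end had a median of 45.3% G and C, with a range of 37% to 59%, among them COX7B at 44%. The 59% is that of COX7A2L, whose promoter lies inside the gene and did have induced RCOR2 peaks close by (10.4 and 17.8). Its base content thus does not belong to a promoter without induced RCOR2.

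The deposited RCOR2-low regions were found at more subunit genes than the RCOR2-high regions. These lists hold positions with no values, and no source used here gives the definition of the classes. RCOR2-low regions lay at a gene end of 51 members (58.6%, all genes 27.2%) and RCOR2-high regions at 21 (24.1%, all genes 31.6%). Both lists met at 4 members (4.6%, all genes 6.45%), and 19 (21.8%, all genes 47.6%) had neither. Complex I had 30 of its 37 genes with RCOR2-low and 10 with RCOR2-high. The genes with RCOR2-high included NDUFA10, NDUFV2, NDUFS7, SDHA, SDHC, UQCRC1, COX5A, COX4I1, ATP5PD and ATP5PF, each with an induced RCOR2 value of 26.0 or more in replicate 2. Values that high were also found outside RCOR2-high. In replicate 2, ATP5ME (44.1), UQCRFS1 (43.7) and ATP5MJ (35.6) had neither kind of region, and NDUFA11 (34.0) had RCOR2-low only. NDUFB2, NDUFB6, NDUFB10 and NDUFA7 had both kinds.

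Other genes of the pathway were counted from lists. Assembly factors, which build the complexes without being part of them, had induced RCOR2 in both libraries at 44 of 45 genes (97.8%, all genes 71.8%) and uninduced FLAG at 7 (15.6%, all genes 8.47%). They had RCOR1 at 28 (62.2%, all genes 33%), RCOR3 at 12 (26.7%, all genes 13.1%) and LSD1 at 1 (2.22%, all genes 4.34%). The exception for RCOR2 was LYRM7, a factor of complex III, with 3.72 in induced replicate 2 only. SURF1, a complex IV factor known from Leigh syndrome, had 15.9 and 78.1 for induced RCOR2, 8.17 in uninduced replicate 1 and 6.71 and 5.25 for RCOR1. Regulators of mitochondrial biogenesis had induced RCOR2 at 10 of 10 genes (all genes 71.8%), uninduced FLAG at 4 (40%, all genes 8.47%) and RCOR1 at 5 (50%, all genes 33%). NRF1 had 30.8 and 72.1 for induced RCOR2, against 4.21 in uninduced replicate 1, and PPARGC1A, a coactivator of mitochondrial genes, had 23.3 and 45.2, against 4.67 and 5.66 in uninduced FLAG.

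All 5 listed genes outside the symbol rule had induced RCOR2 and RCOR1 in both libraries, where all genes gave 71.8% and 33%. Among them was CYCS, which encodes cytochrome c and not a subunit of a complex. COXFA4, formerly NDUFA4, had 30.05 and 82.5 for induced RCOR2, against 5.65 in uninduced replicate 1. Its relative COXFA4L2 had RCOR1 at 19.99 and 9.51, RCOR3 at 9.87 and 10.7 and LSD1 at 4.72 and 6.23, of which the RCOR1 and RCOR3 values were above that of every member in the same library. Its induced RCOR2 was 13.9 and 35.9, against 4.24 and 7.67 in uninduced FLAG. Peak lists of this kind do not check the cell type, since 6 of 6 adrenergic genes and 5 of 5 mesenchymal-state genes had induced RCOR2 in both libraries.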

How the data were processed

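Peaks of RCOR1, FLAG-tagged RCOR2, RCOR3 and LSD1 were measured by ChIP-seq in Kelly cells, 2 libraries a group. The submitters' processing notes name GRCh38 as the build and, as tools, BWA 0.7.17, MACS2 and deepTools. Which control was used, how duplicates were treated and any later filter were not given in the sources used here. Each deposited list holds the peaks of 1 library, with the authors' fold enrichment (a ratio over background) and the authors' −log10 q-value for each peak. The depth of the libraries in reads is unknown. The replicates are numbered per the labels, which differ from the replicate names inside some of the deposited peak lists.

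Peaks on chromosomes 1 to 22 and X were assigned to every protein-coding gene whose 2 kb windows around both gene ends they overlapped by at least 1 bp, with Python 3.11.15 and numpy 2.4.6. The annotation was a RefSeq table (GRCh38.p14) without strand. Strand, start and promoter came from a RefSeq promoter table, which matched 70 of the 87 members and 15812 of 19974 genes. For 4 of the 70 the start is not at a gene end. All members are described by counts beside the same counts over all genes. Members are not replicates of a condition, and no test was made, since 2 libraries against 2 cannot give an exact two-sided p below 0.333. The scripts were tested on simulated peaks.

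The members, lists and rules were chosen with earlier results of these data known. Genes named with values were all SDH genes, members without induced RCOR2, the 2 highest members of each complex for each protein by the lower percentile rank of both libraries, members with LSD1 or with all 3 RCOR proteins in both libraries, tissue-restricted isoforms and copies, and members with RCOR2 and RCOR1 but no uninduced peak. Others were named after their values were seen, and not every gene the rule takes is printed. For 1 member, which enters all counts, values are not reported here. The alternatives were peaks of either library, merged regions, 50% reciprocal overlap, 500 bp windows, the start of transcription only, the nearest gene end, peaks above the median score, equal numbers of top peaks, removal of uninduced peaks, removal of readthrough genes and copies, leaving out each replicate, and a replicate block.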

Additional observations from a re-analysis of the deposited data

How the results depend on the processing

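Induced RCOR2 peaks in both libraries stayed at 58 to 81 of 87 members under the other settings tried, apart from removal of peaks on an uninduced FLAG peak (48 members) and equal numbers of top peaks (23). The counts of the other proteins moved with the setting, and in each case fewer or more peaks or libraries entered by construction. Counts in this section that stand without a share over all genes do not show whether the members differ from other genes. With a peak in either library enough, uninduced FLAG was found at 35, RCOR1 at 75, RCOR3 at 43 and LSD1 at 18 members. With 50% reciprocal overlap of the 2 libraries, uninduced FLAG was found at 1, RCOR1 at 7 and RCOR3 at 10. With peaks above the median score of their library, uninduced FLAG was found at 2, RCOR1 at 18, RCOR3 at 3 (3.45%, all genes 4.12%) and LSD1 at 1. With equal numbers of top peaks, RCOR1 was found at 12, RCOR3 at 4 and LSD1 at 1. Without peaks on an uninduced FLAG peak, RCOR1 was found at 20 and RCOR3 at 12. Counting the start of transcription only, for 70 members, gave RCOR3 at 12 and LSD1 at 1, and 500 bp windows gave LSD1 at 1. Counting peaks over the whole gene and 2 kb either side, an alternative chosen after seeing the data, gave LSD1 at 5 and induced RCOR2 at 81.

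Leaving out each replicate in turn gave 78 to 79 members for induced RCOR2, 12 to 29 for uninduced FLAG, 40 to 75 for RCOR1, 31 to 33 for RCOR3 and 4 to 17 for LSD1. The 43 members with induced RCOR2 and no uninduced peak became 69 when both groups were counted by merged regions, 66 with 50% reciprocal overlap and 5 with equal numbers of top peaks, and 44 to 65 without single libraries. With a replicate block, which compares induced and uninduced libraries of the same number, the count was 50 for number 1 and 67 for number 2. The labels do not say that a number marks a shared culture, so the libraries share only a number.

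Limits come from the peak lists. They differ in length, so a count for a long list and a count for a short list are not on the same footing. Read depth and control are unknown here, and a gene without a peak is one at which no call was made. Close neighbours share peaks with many members.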

Other observations

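The CCAAT box was rarer in the promoters of members with RCOR1. It was found in 7 of the 32 promoters of members with RCOR1 in both libraries (21.9%) and in 18 of 38 of the others (47.4%), where all promoters gave 36.3%. The string was picked out after its values were seen. Among members with the CCAAT box, 7 of 25 had RCOR1 in both libraries, against 25 of 45 without it. The same split of RCOR1 was not counted over all genes, and the difference was not tested.

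The 6 members with an uninduced FLAG peak in both libraries had the summits of the 2 uninduced libraries a median of 236.5 bp apart, and 3 of them lay within 200 bp. In the induced libraries the summits at 57 of 77 members (74%) lay within 200 bp of each other. RCOR1 replicate 2 and RCOR3 replicate 1 had summits within 200 bp at 20 of the 23 members with both (87%), with a median of 47 bp.

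Over the whole gene, NDUFA5 held LSD1 in both libraries inside the gene (5.52 and 6.46), 15.3 kb from the nearest gene end, where no RCOR peak was called. COX7B2 held induced RCOR2 peaks in both libraries (5.32 at most) that lay 70.2 and 77.9 kb or more from its ends.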
